A study of Mus musculus with 6 samples.

Results

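The 10 genes described here encode transcriptional repressors that bind DNA and bring Lsd1 to chromatin. They are Snai1, Snai2, Snai3, Gfi1, Gfi1b, Insm1, Rest, Zeb1, Zeb2 and Prdm1, out of 26180 genes with curated RefSeq transcripts on the mouse mm10 assembly. They were chosen by name, and a peak was counted for a gene when its centre lay within 10 kb of the gene's span, from the first to the last transcribed base. This gave 31 of 43426 peaks of wild-type cells in myogenic medium, 16 of 18893 of wild-type cells in adipogenic medium and 19 of 33533 of LSD1(OE) cells. The peak lists hold Lsd1 occupancy at these genes. They measure neither the expression of the genes nor the binding of their proteins, so the name given to the group is background and could not be checked with them.

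The cells were C2C12, a mouse myoblast line that fuses into muscle fibres in low serum and can be turned towards fat cells by an adipogenic cocktail. Wild-type cells were taken at day 1 in myogenic medium with 2% horse serum, and wild-type and LSD1(OE) cells at day 1 in adipogenic medium with 850 nM insulin, 1 µM rosiglitazone, 5 µM dexamethasone, 0.5 mM isobutylmethylxanthine, 1 nM T3, 125 nM indomethacin and 10% FCS. The LSD1(OE) cells carried a lentiviral Flag-tagged LSD1 under a tetracycline-dependent promoter, were selected with G418 and received doxycycline before and during differentiation, so that the level of LSD1, the selected line and the drug cannot be told apart. Each condition had 1 Lsd1 ChIP library and 1 input library, there are no replicates, and every difference given here is one between single libraries without a test.

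Lsd1 is a demethylase of histone H3 that works in a complex with CoREST proteins and histone deacetylases. Snail and Gfi proteins and Insm1 begin with a short SNAG domain that resembles the tail of histone H3 and docks into the catalytic site of Lsd1, which brings the complex to the genes they repress. Rest reaches the complex through CoREST, Zeb1 and Zeb2 through the corepressor CtBP, and Prdm1, also called Blimp-1, has been found together with Lsd1 in lymphoid cells. In muscle precursors Snail factors compete with MyoD for E-boxes, short DNA elements that both bind, and a repressor that occupies its own gene or those of its relatives can form a feedback loop.

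5 stretches of DNA are shown for the positions to which the results return. The Snai1 promoter (chr2:167537945-167538194, mm10, plus strand) held the summits of all 3 libraries, and the Prdm1 promoter (chr10:44458749-44458998, minus strand) was covered by a peak in each. The stretch upstream of Snai2 (chr16:14705277-14705576, plus strand) surrounds its myogenic summit, and that upstream of Gfi1b (chr2:28629933-28630232, minus strand) the summit of the only Gfi1b peak. The stretch downstream of Zeb2 (chr2:44977225-44977524, minus strand) surrounds the LSD1(OE) summit of a distal peak. The myogenic peak there overlaps the stretch. The adipogenic peak (chr2:44976029-44976998) overlaps both other peaks but ends before the stretch begins. All 5 come from the RefSeq GRCm38.p6 genome, each written 5′ to 3′ on the strand of the gene. Capitals mark CACCTG or its reverse complement CAGGTG, an E-box of Snail and Zeb factors, at Snai1 and Prdm1, CAGCTG, an E-box of myogenic factors, at Snai2 and Gfi1b, and TGAGTCA, an AP-1 element, at Zeb2.
Snai1 promoter: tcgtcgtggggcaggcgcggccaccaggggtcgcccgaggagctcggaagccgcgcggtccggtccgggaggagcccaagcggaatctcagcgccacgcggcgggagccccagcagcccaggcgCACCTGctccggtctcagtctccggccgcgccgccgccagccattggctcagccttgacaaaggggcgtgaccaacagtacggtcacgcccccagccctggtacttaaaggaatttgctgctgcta
Prdm1 promoter: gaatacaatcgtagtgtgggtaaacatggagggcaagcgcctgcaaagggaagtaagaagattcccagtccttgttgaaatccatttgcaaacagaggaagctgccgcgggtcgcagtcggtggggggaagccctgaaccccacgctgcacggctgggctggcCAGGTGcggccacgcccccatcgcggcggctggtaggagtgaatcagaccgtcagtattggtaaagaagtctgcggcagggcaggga
Snai2 upstream: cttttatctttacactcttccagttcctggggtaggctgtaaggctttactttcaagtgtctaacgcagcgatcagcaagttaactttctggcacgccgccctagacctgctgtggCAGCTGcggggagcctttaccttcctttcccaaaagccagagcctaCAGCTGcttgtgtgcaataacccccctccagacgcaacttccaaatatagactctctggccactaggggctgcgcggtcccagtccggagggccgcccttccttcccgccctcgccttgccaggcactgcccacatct
Gfi1b upstream: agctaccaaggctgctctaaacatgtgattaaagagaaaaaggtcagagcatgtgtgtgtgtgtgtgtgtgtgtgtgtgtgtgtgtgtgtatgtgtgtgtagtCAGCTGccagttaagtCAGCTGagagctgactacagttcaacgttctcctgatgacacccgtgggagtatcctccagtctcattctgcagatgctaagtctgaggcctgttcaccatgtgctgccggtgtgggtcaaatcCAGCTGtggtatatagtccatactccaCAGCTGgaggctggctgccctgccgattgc
Zeb2 downstream: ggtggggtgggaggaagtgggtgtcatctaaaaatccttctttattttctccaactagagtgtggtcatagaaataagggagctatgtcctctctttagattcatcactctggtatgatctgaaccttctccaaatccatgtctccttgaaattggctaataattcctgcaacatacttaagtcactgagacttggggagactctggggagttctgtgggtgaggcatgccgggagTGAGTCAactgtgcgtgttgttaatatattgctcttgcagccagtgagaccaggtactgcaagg

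The CACCTG of Snai1 begins 126 bp upstream of its transcription start site (TSS), between the LSD1(OE) summit and those of the other two libraries, and the CAGGTG of Prdm1 87 bp upstream of its TSS. In RefSeq's table of promoters, which reach 250 bp upstream of each start, CACCTG stood on either strand in 17.2% of 32851 promoters. Counted by gene, in any of its promoters, it stood at 19.4% of 27025 genes. Among the 5 members listed there it stood at Gfi1, Snai1 and Prdm1. The 2 copies of CAGCTG at Snai2 begin 459 and 413 bp upstream of the TSS. At Gfi1b 4 copies begin between 8147 and 7980 bp upstream, and a summit window of 300 bp with at least 4 copies was found at 53 of the 43426 myogenic peaks. A match describes the letters only and is not evidence of a bound factor.

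In the myogenic library 9 of the 10 genes had a peak, against 62.5% of all genes by the same rule. In the adipogenic library 8 had one, against 41.2%, and in LSD1(OE) cells 8, against 53.9%. These 8 were the same genes, so Snai1, Snai2, Snai3, Gfi1, Rest, Zeb1, Zeb2 and Prdm1 had a peak in all 3 libraries, as did 37.9% of all genes. Gfi1b had one in the myogenic library only, as did 9.66% of all genes. Insm1 had none in any library, as did 33.6%. The peak caller had scaled the ChIP tags up to the input, and each score was also divided by that factor, here called unscaled tags. No peak was called anew. By this division the peaks of Rest and Zeb1 in the adipogenic library and that of Gfi1b in the myogenic library fell under the limit of 50. That left 6 members with a peak in all 3 libraries. No member had a peak in the myogenic and LSD1(OE) libraries without one in the adipogenic library, a pattern of 12.5% of all genes. With unscaled tags Rest and Zeb1 did. The shares of all genes were not computed for unscaled tags, so 37.9% and 12.5% are not the background of the counts by this division.

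**Figure D1:**
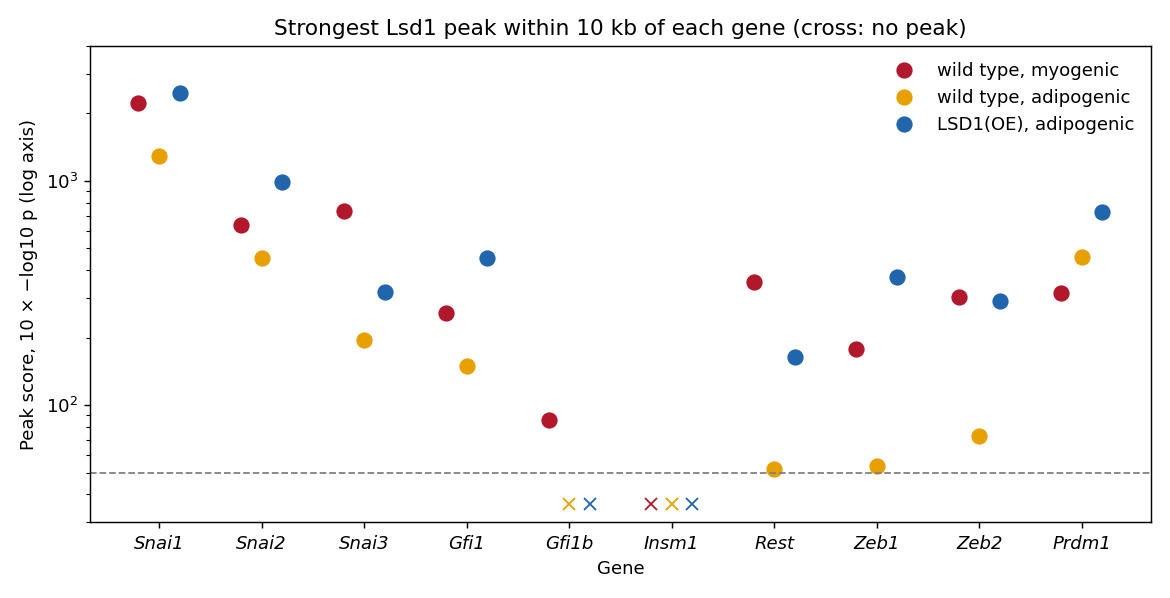
Score of the strongest Lsd1 peak within 10 kb of each gene (vertical axis, 10 times −log10 of the p-value, log scale) in 3 single libraries, with crosses for no peak and a dashed line at the peak caller's limit of 50. Snai1 stands above the other 9 genes in each library, and the adipogenic peaks of Rest and Zeb1 lie just above the limit.

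Snai1, which represses E-cadherin during the change from epithelial to mesenchymal cells, had the strongest Lsd1 peaks of the group in every library. The score of a peak is 10 times −log10 of its p-value against the local background. The strongest peak at Snai1 scored 2228 in the myogenic, 1297 in the adipogenic and 2465 in the LSD1(OE) library. By strongest peak within 10 kb, Snai1 ranked 243rd, 117th and 147th of the 16358, 10781 and 14113 genes with a peak. It was thus among the top genes of each library, adipogenic medium included.

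The myogenic peak was a block of 7577 bp (chr2:167537417-167544993) with 757 ChIP tags, or mapped reads after duplicates had been limited. The LSD1(OE) peak was a block of 10424 bp (chr2:167537080-167547503) with 1324 tags. They were the 18th and the 11th longest peaks of their libraries, and each covered the whole gene of 4620 bp. Between 0.131% and 0.145% of genes 2 to 10 kb long were covered over their whole length in these libraries, that is 9 of 6874 genes in the myogenic and 10 in the LSD1(OE) library, and 0.0582%, or 4 genes, in the adipogenic one. Over genes of any length the shares were 1.21% in the myogenic, 0.703% in the adipogenic and 0.921% in the LSD1(OE) library. In adipogenic medium the same stretch was called as separate peaks, which left 90.6% of the gene covered.

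The strongest adipogenic peak (chr2:167537262-167539468) was 2207 bp long with 329 tags, and 2 further peaks of 2566 and 1661 bp, with 227 and 176 tags, followed it across the gene. Despite the difference in extent, the summits lay close together, 119 bp upstream of the TSS in the myogenic, 102 bp in the adipogenic and 140 bp in the LSD1(OE) library. All 3 fall inside the promoter sequence printed above. The 300 bp around these summits had a GC content of 71.0, 70.0 and 69.7%, against a median of 62.3, 62.3 and 62.0% over all promoter peaks of each library.

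**Figure D2:**
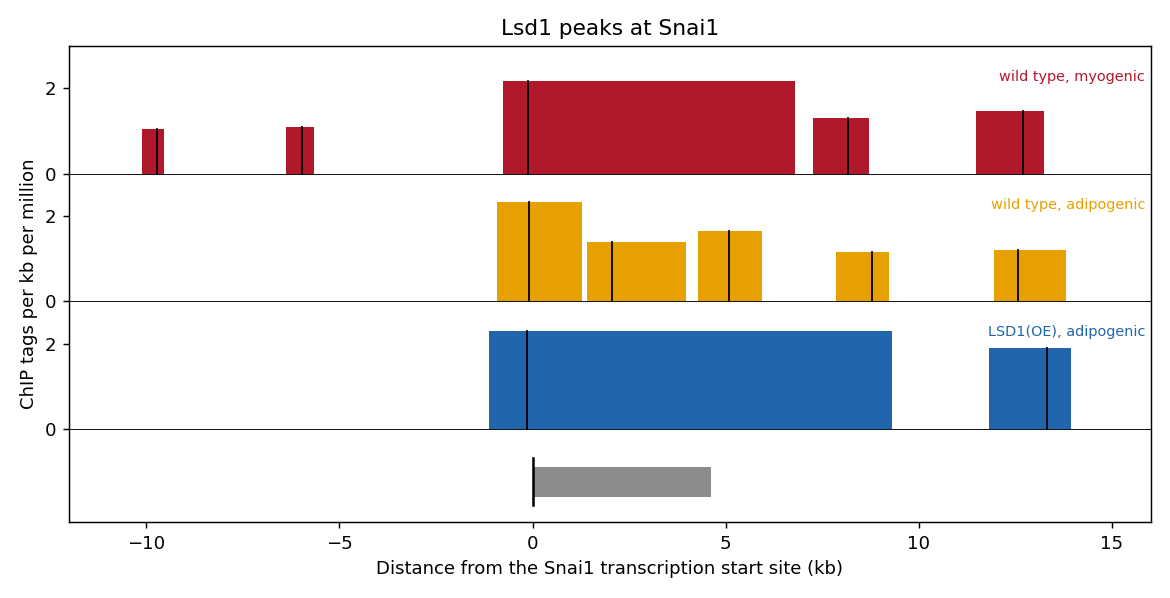
Lsd1 peaks around Snai1 by distance from the TSS in kb (horizontal axis), each bar as wide as the peak and as high as its density in ChIP tags per kb per 1000000, with black lines at the summits and the gene in grey. A block over the gene in the myogenic and LSD1(OE) libraries is split into 3 peaks in the adipogenic library, with the first summit at the promoter in each.

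Downstream of Snai1, peaks centred between 12358 and 12887 bp from the TSS were found in all 3 libraries, with scores of 382 in the myogenic, 112 in the adipogenic and 996 in the LSD1(OE) library. Its LSD1(OE) density was 1.91 tags per kb per 1000000 ChIP tags, against 1.47 in the myogenic and 1.21 in the adipogenic library. This downstream site thus had its highest density in LSD1(OE) cells. Peaks centred at 7989 bp in the myogenic library (score 228) and 8542 bp in the adipogenic library (score 148) lay within the LSD1(OE) block. Upstream, peaks at 6028 and 9827 bp, with scores of 74.3 and 54.9, were called in the myogenic library alone. That at 9827 bp was the member peak nearest to the limit of 10 kb, and the nearest peaks beyond it were 10122 bp (score 198, myogenic) and 10469 bp (score 243, adipogenic) downstream of the end of Snai1. Further downstream, some peaks outside the window scored higher than the strongest Snai1 peak of their library. They included one at 32015 bp (2410, myogenic) and ones at 28238 and 33453 bp (2897 and 2772, LSD1(OE)). In the adipogenic library a peak at 33008 bp scored 1263, below that of Snai1. Within 50 kb Snai1 had 19 myogenic, 17 adipogenic and 15 LSD1(OE) peaks.

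Summed over its peaks, Snai1 held 1027 tags in the myogenic, 977 in the adipogenic and 1548 in the LSD1(OE) library, or 22.3 (95% Poisson interval 20.9 to 23.7), 15.3 (14.3 to 16.3) and 28.0 (26.7 to 29.5) tags per 1000000 ChIP tags, the normalised tag sum of the gene. The 3 intervals did not overlap. They cover counting error only and none of the differences between cultures. Each sum, here and at the genes below, holds only tags in peaks called in its own library. A place without a called peak adds nothing, so the intervals do not measure a difference in occupancy at the same place. The LSD1(OE) sum was 1.83 times the adipogenic one (95% interval 1.69 to 1.99), with 1.30 times the covered length and 1.41 times the density. The adipogenic sum was 0.687 times the myogenic one (0.629 to 0.751), with 0.800 times the covered length and 0.859 times the density.

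Snai2, or Slug, the second Snail factor of mesenchymal and neural crest cells, had its strongest peak just upstream of its TSS in each library. The scores were 639 in the myogenic, 453 in the adipogenic and 991 in the LSD1(OE) library, from 132, 277 and 249 tags. The myogenic peak (chr16:14704806-14706267) was 1462 bp long, the adipogenic one 2665 bp and the LSD1(OE) one 2572 bp. The myogenic and adipogenic summits lay 426 and 396 bp upstream of the TSS, by the pair of CAGCTG elements, and the LSD1(OE) summit 15 bp downstream. A second peak in the intron, 1802 bp downstream in the myogenic (score 51.2) and 1853 bp in the LSD1(OE) library (score 140), was absent from the adipogenic list.

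Snai2 is one of the 2 members with a higher normalised tag sum in adipogenic than in myogenic medium. The values were 3.47 (interval 2.95 to 4.05) in the myogenic, 4.33 (3.84 to 4.88) in the adipogenic and 5.71 (5.09 to 6.37) in the LSD1(OE) library. The adipogenic to myogenic ratio of 1.25 (1.03 to 1.53) came with 1.29 times the covered length and 0.970 times the density, so the adipogenic peak was longer and not denser. The ratio of LSD1(OE) to adipogenic sums was 1.32 (1.12 to 1.55), with 1.35 times the covered length and 0.975 times the density. These densities include the weak intron peak where it was called. At the strongest peak alone the density was 1.96 in the myogenic, 1.63 in the adipogenic and 1.75 in the LSD1(OE) library. There the LSD1(OE) peak was denser than the adipogenic one.

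Snai3, the third Snail factor of the mouse, first cloned from skeletal muscle, had a peak over its TSS in each library. The scores were 733 in the myogenic, 196 in the adipogenic and 320 in the LSD1(OE) library, with 187, 123 and 103 tags. The myogenic peak (chr8:122460105-122462510) was the longest, at 2406 bp. The normalised tag sums were 4.05 in the myogenic, 1.92 in the adipogenic and 2.52 in the LSD1(OE) library. Snai3 was the one Snail gene with its lead in the myogenic library, where the adipogenic sum was 0.475 times the myogenic (0.375 to 0.600), with 0.649 times the covered length and 0.732 times the density. The LSD1(OE) sum was 0.622 times the myogenic (0.495 to 0.778), with 0.806 times the covered length and 0.774 times the density. The strongest peak of each library also lay within 10 kb of the genes Rnf166 and Gm20735, and the nearest TSS to it was that of Snai3.

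Gfi1, a repressor that shapes blood stem cells and lymphoid and inner ear cells, has a second TSS 1462 bp inside the gene, and its Lsd1 peaks lay at that inner start. Each library had a single peak, centred 317 bp downstream of the inner TSS in the myogenic, 453 bp in the adipogenic and 599 bp in the LSD1(OE) library. The scores were 258, 150 and 451, from 112, 92 and 160 tags. The myogenic peak (chr5:107723181-107724872) was 1692 bp long, the adipogenic one 1174 bp and the LSD1(OE) one 2072 bp, and the outer TSS was covered in none.

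The normalised tag sum of Gfi1 was 2.43 (2.00 to 2.92) in the myogenic, 1.44 (1.16 to 1.77) in the adipogenic and 2.90 (2.47 to 3.38) in the LSD1(OE) library. The adipogenic interval lay below both others, while those of the myogenic and LSD1(OE) libraries overlapped. The LSD1(OE) sum was 2.01 times the adipogenic (1.55 to 2.63), with 1.76 times the covered length and 1.14 times the density.

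Gfi1b, the erythroid and megakaryocytic relative of Gfi1, had 1 peak, in the myogenic library (chr2:28629669-28630428). It lay 8066 bp upstream of the TSS and held 40 tags with a score of 85.8, which ranked 26773rd of the 43426 peaks of that library. It did not pass a stricter FDR (0.1%) or score limit (100), nor the limit of 50 with unscaled tags (45.2), and it dropped out with equal numbers of peaks in each list and with windows of 2 or 5 kb. The 300 bp around its summit, printed above, had a GC content of 50.7%. In the other two libraries no peak of Gfi1b was called. The smallest peaks of those lists held 35 tags (adipogenic) and 30 tags (LSD1(OE)), which is where the peak calls ended and not a measure of absence.

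Insm1, which directs neuroendocrine and neuronal precursors, had no peak within 10 kb in any library. The nearest was 64.4 kb away in the myogenic library, with 30 tags and a score of 55.9. In the LSD1(OE) library the nearest was 287 kb and in the adipogenic library 361 kb away. No region near Insm1 thus passed the caller's limit, and the smallest peak that did in the myogenic library held 27 tags.

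Rest, which silences neuronal genes in other tissues and binds CoREST directly, had a peak at its TSS in each library that differed widely in strength. The scores were 354 in the myogenic, 51.7 in the adipogenic and 164 in the LSD1(OE) library, from 127, 42 and 76 tags. The myogenic peak (chr5:77265091-77267197) ran 2107 bp from the promoter into the first intron. The adipogenic one (chr5:77264865-77265501) was 637 bp long and ranked 18410th of 18893 peaks by score. It was among the weakest peaks of its list, with an FDR of 0.67%, and its score with unscaled tags was 40.5, under the limit of 50. In LSD1(OE) cells a weaker peak centred 534 bp upstream of the TSS, with 36 tags and a score of 58.4, adjoined the strongest one.

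The normalised tag sums at Rest were 2.75 (2.29 to 3.27) in the myogenic, 0.657 (0.474 to 0.888) in the adipogenic and 2.03 (1.67 to 2.44) in the LSD1(OE) library. The adipogenic interval lay below both others. The LSD1(OE) sum was 3.09 times the adipogenic (2.15 to 4.51), with 2.82 times the covered length and 1.10 times the density, so most of this ratio lay in the length called. The 300 bp around the Rest summits were GC-rich, at 74.3, 66.7 and 78.7% for the strongest peaks. All Rest peaks also fell within 10 kb of Mir5098.

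**Figure D3:**
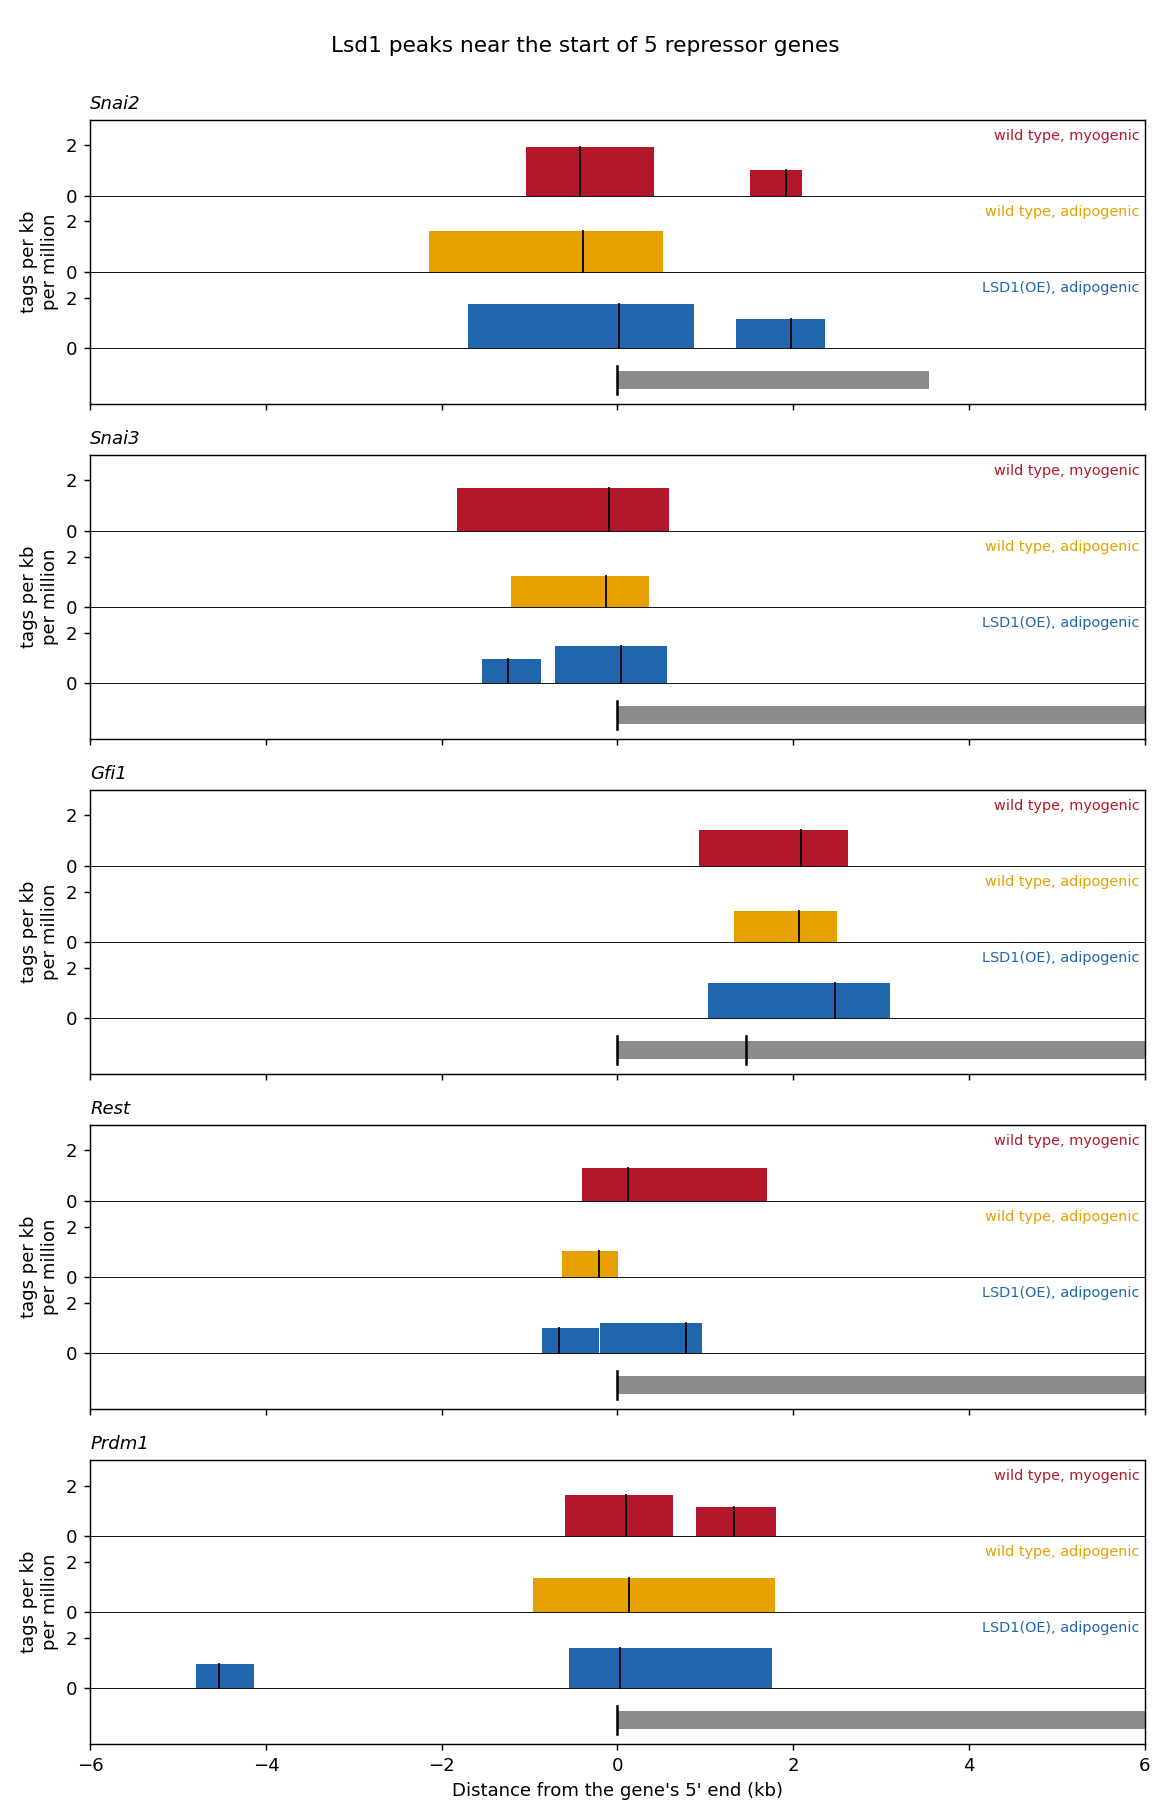
Lsd1 peaks within 6 kb of the 5′ end of Snai2, Snai3, Gfi1, Rest and Prdm1 (horizontal axis, kb), with bar height as ChIP tags per kb per 1000000, black lines in the bars at summits, the gene in grey and its start sites as ticks. The peaks of the 3 libraries overlie one another at each gene, and at Gfi1 they lie at the inner start site 1462 bp from the 5′ end.

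Prdm1, a repressor that acts in plasma cell and germ cell development, had a peak over its TSS in every library. The scores of its strongest peak were 316 in the myogenic, 459 in the adipogenic and 726 in the LSD1(OE) library, from 93, 241 and 206 tags. The myogenic peak (chr10:44458116-44459342) was 1227 bp long, while the adipogenic (chr10:44456960-44459710) and LSD1(OE) peaks (chr10:44456989-44459304) measured 2751 and 2316 bp. They also spanned the place of a second myogenic peak in the intron, centred 1351 bp downstream of the TSS with a score of 106. The summits were 100, 126 and 30 bp downstream of the TSS.

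By deposited score of the strongest peak, Prdm1 was the one member lower in the myogenic than in the adipogenic library. With unscaled tags Snai2 was lower there too, at 337 against 355, beside 167 against 359 for Prdm1. Its normalised tag sums were 3.08 (2.59 to 3.63) in the myogenic, 3.77 (3.31 to 4.28) in the adipogenic and 4.37 (3.83 to 4.95) in the LSD1(OE) library. The ratio of adipogenic to myogenic sums was 1.23 (0.992 to 1.52) and that of LSD1(OE) to adipogenic sums 1.16 (0.965 to 1.39), both with an interval that includes 1. Their covered lengths stood at 1.28 and 1.08 times and their densities at 0.951 and 1.07 times. A peak 4464 bp upstream, with 35 tags and a score of 50.9, was called in LSD1(OE) cells alone.

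Zeb1 and Zeb2, E-box repressors of the epithelial programme with zinc fingers at both ends, are the longest genes of the group, at 184 and 134 kb, and their peaks were many and weak. Together they held 18 of the 31 myogenic, 6 of the 16 adipogenic and 8 of the 19 LSD1(OE) peaks of the group. Of the 18 myogenic peaks 14 scored under 100, as did all 6 adipogenic ones and 5 of the 8 in LSD1(OE) cells. Over all peaks, 43.7% of the myogenic and 44.1% of each other list scored under 100. Among the other 8 genes, 9 of 13, 9 of 10 and 8 of 11 peaks scored 100 or more.

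Zeb1 had 7 peaks in the myogenic, 2 in the adipogenic and 6 in the LSD1(OE) library. When each list was limited to its 18893 strongest peaks, the length of the adipogenic list, it had 1, 2 and 2, so that the lead of the myogenic library was gone. Its strongest peak in the myogenic library, with 64 tags and a score of 177, lay in an intron 148163 bp downstream of the nearest Zeb1 TSS. In LSD1(OE) cells the strongest peak overlapped it, with 132 tags and a score of 372. Nothing was called there in adipogenic medium. The promoter peaks, centred 704 and 574 bp downstream of the inner TSS, scored 114 in the myogenic and 129 in the LSD1(OE) library. Zeb1 was the one member with a promoter peak in these libraries but not in the adipogenic one, as had 10.8% of all genes.

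The adipogenic peaks of Zeb1 lay elsewhere, 8124 bp upstream and 11211 bp downstream of the nearest Zeb1 TSS, with scores of 51.9 and 53.2, or 40.7 and 41.7 with unscaled tags, under the limit of 50. Neither overlapped a Zeb1 peak of the other two libraries. The normalised tag sums at Zeb1 were 6.04 (5.36 to 6.80) in the myogenic, 1.64 (1.34 to 1.99) in the adipogenic and 6.67 (6.00 to 7.38) in the LSD1(OE) library. The LSD1(OE) sum was 4.06 times the adipogenic (3.26 to 5.09), with 3.30 times the covered length and 1.23 times the density. The ratio of LSD1(OE) to myogenic sums was 1.10 (0.942 to 1.29), an interval that includes 1. As no adipogenic peak overlapped an LSD1(OE) one, the ratio of 4.06 compares tags at different places. The first 3 myogenic peaks, the upstream adipogenic peak and 2 of the LSD1(OE) peaks also lay within 10 kb of Gm10125.

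**Figure D4:**
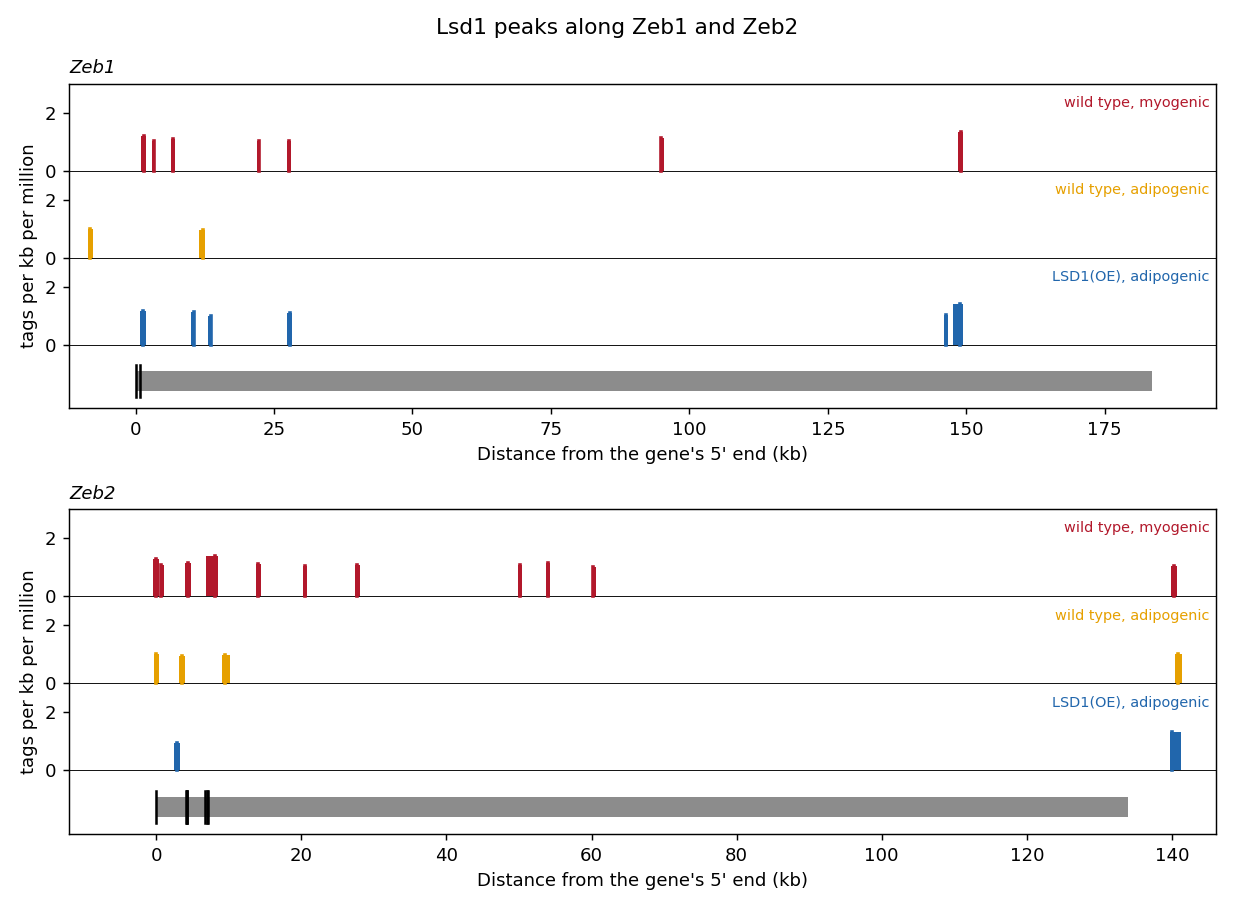
Lsd1 peaks along Zeb1 and Zeb2 by distance from the 5′ end (horizontal axis, kb), with bar height as ChIP tags per kb per 1000000, the gene in grey and its start sites as ticks. Bars are drawn wider than the peaks for visibility. The strongest Zeb1 peaks of the myogenic and LSD1(OE) libraries lie deep in the gene, and all 3 libraries have a peak beyond the far end of Zeb2.

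Zeb2 had 11 peaks in the myogenic, 4 in the adipogenic and 2 in the LSD1(OE) library. With equal numbers of peaks it had 1, 4 and 1, so that the adipogenic library held the most. Its strongest myogenic peak (chr2:45108904-45110513, 103 tags, score 303), 569 bp downstream of an inner TSS, was overlapped by no peak of the other two libraries. The peak at the outermost TSS scored 131 in the myogenic and 51.4 in the adipogenic library and was not called in LSD1(OE) cells. The strongest LSD1(OE) peak (chr2:44976182-44977771, 115 tags, score 291) was instead a distal one, 6536 bp beyond the 3′ end of the gene. The myogenic and adipogenic libraries had weak peaks at this place, with 35 and 63 tags and scores of 62.7 and 70.9.

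The normalised tag sums at Zeb2 were 9.36 (8.50 to 10.3) in the myogenic, 3.54 (3.09 to 4.03) in the adipogenic and 2.83 (2.40 to 3.31) in the LSD1(OE) library. Zeb2 was the one member whose LSD1(OE) sum was lower than the adipogenic one, at a ratio of 0.799 (0.648 to 0.985) with 0.662 times the covered length and 1.21 times the density. The LSD1(OE) sum was 0.302 times the myogenic (0.250 to 0.363), with 0.295 times the covered length and 1.03 times the density. Most of the myogenic Zeb2 peaks had no LSD1(OE) peak at their place, so this ratio too compares tags at different places. The overlapping antisense gene Zeb2os shares the 5′ region, so that peaks there cannot be given to either gene alone. The TSS nearest to the distal peak belonged to Mir5129.

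**Figure D5:**
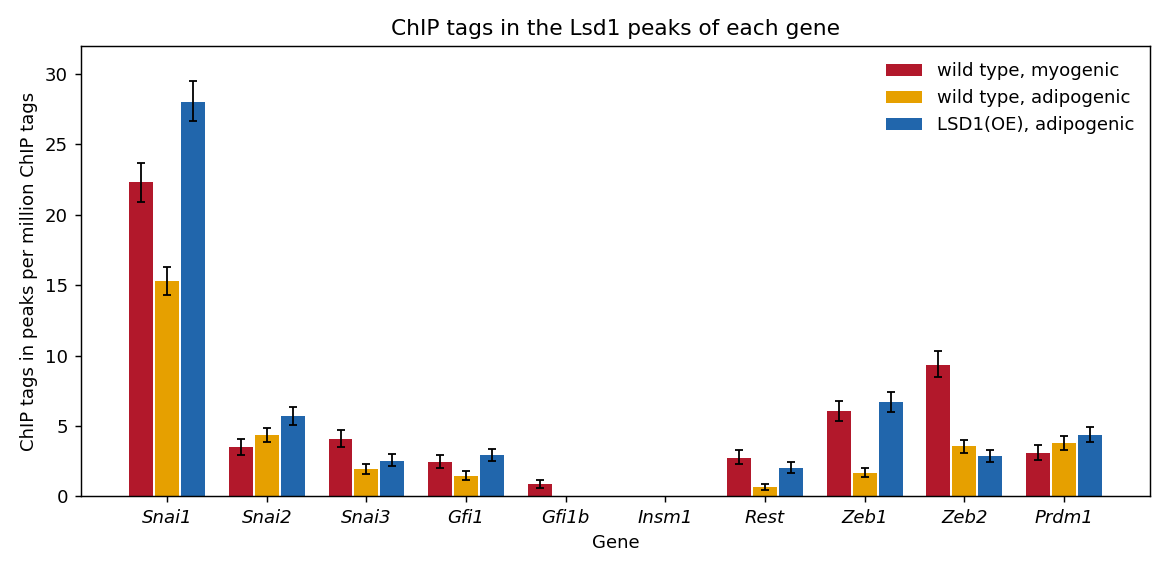
ChIP tags in all Lsd1 peaks of each gene per 1000000 ChIP tags of the library (vertical axis), with error bars as 95% Poisson intervals that cover counting error only. Snai1 holds 22.3, 15.3 and 28.0 tags and no other gene reaches 10. Snai1, Snai3, Gfi1, Rest and Zeb1 are lowest in wild-type cells in adipogenic medium.

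Promoter peaks, here those centred within 2000 bp of one of a gene's own start sites, were found at 7 of the 10 members in each library. By the same rule 46.8% of all genes had one in the myogenic, 27.0% in the adipogenic and 37.3% in the LSD1(OE) library. At 6 members this held in all 3 libraries, against 23.5% of all genes. They were Snai2, Snai3, Gfi1, Rest, Zeb2 and Prdm1. Snai1 was counted only in the adipogenic library, because the centre of its long block fell 3010 bp (myogenic) and 4096 bp (LSD1(OE)) downstream of the TSS that the block covers.

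Peaks of at least 100 in score were found at 8 members in the myogenic library, against 54.0% of all genes, at 5 in the adipogenic, against 29.3%, and at 8 in the LSD1(OE) library, against 42.3%. The 5 adipogenic ones were Snai1, Snai2, Snai3, Gfi1 and Prdm1, and Rest, Zeb1 and Zeb2 were the 3 with weaker peaks alone. The median strongest score of members with a peak was 316 in the myogenic, 173 in the adipogenic and 411 in the LSD1(OE) library, beside 344, 154 and 225 for all genes with a peak. In the myogenic library the members' median was thus below that of all genes, and in the other two above it. Members had 5.20, 2.68 and 3.18 peaks per 100 kb of their windows, beside 2.99, 1.35 and 2.27 over the windows of all genes. Median window lengths were 30.8 kb for members and 33.5 kb for all genes, but the rates pool all windows. Of the 597 kb of member windows, Zeb1 and Zeb2 made up 204 and 154 kb, and they held 18 of the 31 myogenic peaks.

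Overlap between the libraries is given beside that of the whole lists, without a test. Of the 31 myogenic member peaks, 12 (38.7%) overlapped an adipogenic peak, against 35.4% of all myogenic peaks, and 14 (45.2%) an LSD1(OE) peak, against 46.5%. Of the 16 adipogenic ones, 13 (81.2%) overlapped a myogenic peak, against 80.5%, and 12 (75.0%) an LSD1(OE) peak, against 74.5%. Of the 19 in LSD1(OE) cells, 14 (73.7%) overlapped a myogenic peak, against 59.8%, and 11 (57.9%) an adipogenic one, against 42.0%. Neither other library had a peak at 15 (48.4%) of the myogenic member peaks, against 46.9% of all myogenic peaks. Those overlapped by a peak of another library were 6 of 18 at Zeb1 and Zeb2 and 10 of 13 at the other 8 genes, which lie either side of the whole list.

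At overlapping peaks, the density of tags per kb, normalised to depth, can be set side by side. From myogenic to adipogenic medium the log2 ratio of density was below 0 at 12 of 13 adipogenic member peaks, with a median of -0.27, beside -0.34 over 15201 such peaks, of which 88.9% were below 0. The exception was the promoter peak of Snai1, at 0.11, although its myogenic density is an average over a much longer block. From adipogenic medium to LSD1(OE), the median was 0.19 over 11 member peaks, beside 0.12 over 14092. The highest values were 0.66 at the peak downstream of Snai1 and 0.37 at the distal peak of Zeb2. From myogenic medium to LSD1(OE) it was -0.03 over 14 member peaks, beside -0.20 over 20058. The shift between the wild-type libraries was thus present at most peaks, those of the members included, and the part of the pull-down in it was not tested.

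Within the 300 bp around the summit, CACCTG stood on either strand in 10 of 31 myogenic, 7 of 16 adipogenic and 8 of 19 LSD1(OE) member peaks, beside 22.7, 26.7 and 25.8% of all peaks. It was present at the strongest peak of Snai1, Snai3 and Prdm1 in every library, absent from those of Rest and Zeb2 in every library, and at Snai2 found in LSD1(OE) cells alone. CAGCTG was found in 7, 5 and 5 member peaks, beside 25.8, 29.3 and 25.9% of all peaks. CAGCACC, a part of the Rest element, stood in 1, 4 and 1 member peaks, beside 9.44, 9.07 and 9.25%, and in none at the Rest gene. Member promoter peaks had a median GC content of 59.3, 62.7 and 60.2%, and member peaks elsewhere 50.3, 55.0 and 47.3%, close to the 62.3, 62.3 and 62.0% and the 49.3, 50.3 and 49.7% of all peaks of these kinds.

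Of 11 related repressor genes, which hold other zinc finger and bHLH factors of these families, 8 had a peak in each library. The shares of all genes were 62.5% in the myogenic, 41.2% in the adipogenic and 53.9% in the LSD1(OE) library. These 8 were the same genes in all 3, as held for 37.9% of all genes. Insm2, Ovol2 and Twist1 had none, so both Insm genes lacked a peak. These genes, like the next ones, are named after their values were seen. Scrt1, a SNAG factor of neurons, scored 1623 in the myogenic, 600 in the adipogenic and 1152 in the LSD1(OE) library, and Ovol1, an epithelial repressor, 1782, 956 and 2179. By strongest peak in the window, Ovol1 was thus closest to Snai1 among the related genes. The Ovol1 peak was not a promoter peak in any library, whereas Scrt1 had a promoter peak in each.

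Of 15 genes for cofactors through which the members act, 15 had a peak in the myogenic, 10 in the adipogenic and 14 in the LSD1(OE) library, against 62.5, 41.2 and 53.9% of all genes. Kdm1a, Rcor1, Ctbp2 and Sin3a had one in the myogenic and LSD1(OE) but not in the adipogenic library, as had 12.5% of all genes. The LSD1(OE) peaks of Kdm1a, Rcor1 and Ctbp2 scored 56.4, 55.2 and 75.85, near the limit of 50, and none was a promoter peak. Sin3a scored 301 there and had a promoter peak. Phf21a, which encodes a reader of unmethylated histone H3 in the Lsd1 complex, scored 1486, 1584 and 3100 and was the strongest of the cofactor genes in the adipogenic and LSD1(OE) libraries. In both it exceeded Snai1.

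After the duplicate filter there were 46155625 ChIP tags in the myogenic, 63915769 in the adipogenic and 55193310 in the LSD1(OE) library, beside 87508211, 81567427 and 100711088 input tags. Scores depend on these depths, so they rank peaks within a library better than between libraries. The adipogenic library had the most ChIP tags and the fewest peaks, and its median peak density of 1.14 tags per kb per 1000000 lay below the 1.22 of the myogenic library and near the 1.13 of the LSD1(OE) library. The share of this difference in the adipogenic sums below the myogenic ones, at Snai1, Snai3, Gfi1, Rest, Zeb1 and Zeb2, was not tested.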

How the data were processed

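The members and lists were chosen with earlier results of these data known. Per the labels, the authors fixed cells with 1% PFA for 6 min, precipitated chromatin with their own antibody against the C-terminus of Lsd1, sequenced 50 bp reads and mapped them to mm10. The authors called the peaks of each ChIP library against its own input with MACS (1.4.2 in the file headers, 1.41 in the submitters' processing notes) at a p cut-off of 1e-05. The deposited lists give per peak the tag count, a score (10 × −log10 p), a ratio (the fold enrichment, not compared between libraries) and an FDR in percent, all under the study's limit of 1%. MACS had scaled the ChIP tags up to the input, by 1.90 (myogenic), 1.28 (adipogenic) and 1.82 (LSD1(OE)). Values with unscaled tags are the deposited scores divided by these factors, without new peak calls or p-values.

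Peaks were placed by their centre on curated RefSeq transcripts of GRCm38.p6, with 31647 start sites. Sums of tags in the peaks called in each library have exact Poisson intervals and their ratios exact conditional intervals, at 95%. With 1 ChIP library per condition no test was made. Peaks sharing 1 bp were counted as overlapping. Alternatives were a stricter FDR, a higher score limit, equal peak numbers, other windows, other placements, unscaled tags and other rules of overlap. Placement and overlap were tested on simulated data. All members are named, and other genes where they share a window or are singled out. Python 3.11.15, pandas 2.3.3 and SciPy 1.17.1 were used.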

Additional observations from a re-analysis of the deposited data

How the results depend on the processing

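No paired analysis was possible because each condition has 1 ChIP library and no result comes from a test. Of 86 values recomputed under other settings, 63 stayed within 1.5 times the reported count and 23 moved further, 20 lower and 3 higher. The number of members with a peak ranged from 5 to 9. At an FDR limit of 0.1%, member peaks numbered 11 in the myogenic, 8 in the adipogenic and 10 in the LSD1(OE) library, with 5 adipogenic genes. Shared peaks were 6 of 11 (myogenic with adipogenic), 9 of 11 (myogenic with LSD1(OE)), 8 of 8 (adipogenic with myogenic) and 8 of 10 (LSD1(OE) with myogenic). These counts were lower than the reported ones, but each was a larger part of fewer member peaks. At a score of at least 100 there were 13, 9 and 11 peaks and 5 adipogenic genes. With equal numbers of peaks, 18893 in each list, there were 10 myogenic, 16 adipogenic and 11 LSD1(OE) peaks, so that the adipogenic library held the most, and 9 and 8 of the myogenic and LSD1(OE) ones were shared with each other. With unscaled tags, 13 myogenic and 11 LSD1(OE) peaks remained, and 9 LSD1(OE) peaks were shared with the myogenic library. A window of 50 kb gave 74, 40 and 52 peaks, and summits within 500 bp left 8 shared adipogenic peaks. The 3 adipogenic genes lost at the FDR and score limits were Rest, Zeb1 and Zeb2, and unscaled tags lost Rest and Zeb1. The myogenic peak of Gfi1b was lost at both limits, at equal numbers, with unscaled tags and within 2 or 5 kb. With 1 library per condition, culture, pull-down and medium cannot be told apart, and a missing peak is not an absence of Lsd1.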
